A study of Mus musculus with 12 samples.

Results

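The genes described here are the 94 mouse genes on the array whose symbol is Gpr followed by a number, with or without 1 letter, out of 35482 gene names in all. The symbol was given to putative G protein-coupled receptors before their ligands were known, and the array keeps names of its design: 22 of the 94 have another RefSeq symbol now, such as Adgrg1 for Gpr56, Ptgdr2 for Gpr44, C5ar2 for Gpr77 and Slc52a2, a riboflavin transporter, for Gpr172b. Members were chosen by name alone, and each was read from its brightest probe over the 12 arrays. A member counted as measured if the scanner software called that probe well above background on each of the 3 arrays of some group, which held for 37 of the 94.

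RNA of bone marrow-derived macrophages, cells grown from the marrow of female C57BL/6 mice aged 6 to 8 weeks for 7 days in medium conditioned by L929 fibroblasts, was hybridised to single-colour arrays, 3 per group. Recovered cells were given lipopolysaccharide (LPS, from the outer membrane of bacteria) for 8 h, left without it for 88 h by the sample descriptions (2 to 4 days by the protocol text) and challenged with LPS for another 4 h. Tolerant cells went through the same steps with a gap of 16 h. Acute cells had LPS once for 4 h, and untreated cells had none. The labels give no genotype beyond the strain. No array was labelled as untreated cells kept for the longer culture, or as cells given the first LPS without the second. Time in culture and earlier LPS therefore cannot be told apart here. The 3 replicates were independent experiments per the labels, with no statement on whether each used separate animals, so p-values measure the spread between these arrays.

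G protein-coupled receptors cross the membrane 7 times and pass a ligand's signal to heterotrimeric G proteins, which change cyclic AMP, calcium or small GTPases. RGS proteins switch the G protein off, and receptor kinases with arrestins switch off the receptor itself. In macrophages, receptors of this kind for lipids, complement fragments, nucleotides and protons steer movement and cytokine output.

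On each array 47.8% to 55.0% of spots were well above background and none was saturated. There were 3 slides and 2 scan days; the third slide, with replicate 3 of every group, was the second day's. Macrophage markers were above background on all arrays for 8 of 8 genes (Csf1r, Emr1, Cd68, Mertk, Fcgr1, Itgam, Lyz2, Cd14), with a summed level of 19.59 to 19.82 in recovered, 19.29 to 19.52 in tolerant, 19.28 to 19.45 in acute and 19.15 to 19.24 in untreated cells. Ms4a1 of B cells, Cd3g and Cd8a of T cells, S100a9 and Ngp of neutrophils and Cpa3 of mast cells were above background on 0 arrays. Cd79b, Cd3e, Lck, Cd4, S100a8, Elane, Camp and Tpsb2 of the same lists were above background on all 12. By group (recovered, tolerant, acute, untreated), erythroid and platelet markers summed to 15.11 to 15.65, 13.51 to 14.63, 13.02 to 14.02 and 12.60 to 13.71. Stromal markers summed to 9.08 to 9.75, 9.04 to 9.28, 8.45 to 9.26 and 7.19 to 7.75. Dendritic cell markers summed to 12.37 to 13.83, 11.36 to 12.58, 12.39 to 13.68 and 11.89 to 13.11. The part of these lists in the results was not tested. Levels throughout are log2 of the processed intensity after each array was set to the same 75th percentile, and differences are on that log2 scale. In such bulk RNA, fewer cells that make a transcript and less transcript per cell cannot be told apart.

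The stretches upstream of 4 members are shown because the level of each differed between tolerant cells and the acute or recovered cells, in different patterns. Each is the 250 bases before a RefSeq start (GRCm38.p6), read 5′ to 3′ on the strand of the gene. Capitals mark matches to GGGA, any 4 bases and CC (NF-kB type) or to TGANTCA (AP-1 type). GAAA, any 2 bases and GAAA (interferon-stimulated response element type) and TGACGTCA (cAMP response element) were also searched, all on both strands. TGANTCA and TGACGTCA read the same on both strands, and no pair of matches shown overlaps.
Gpr84 (chr15:103310439-103310688, minus strand): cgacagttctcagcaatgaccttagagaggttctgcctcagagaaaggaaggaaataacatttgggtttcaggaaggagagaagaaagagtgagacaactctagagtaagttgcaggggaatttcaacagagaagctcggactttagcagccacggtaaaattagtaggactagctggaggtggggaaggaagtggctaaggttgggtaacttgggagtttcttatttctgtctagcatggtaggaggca
Gpr35 (chr1:92978653-92978902, plus strand): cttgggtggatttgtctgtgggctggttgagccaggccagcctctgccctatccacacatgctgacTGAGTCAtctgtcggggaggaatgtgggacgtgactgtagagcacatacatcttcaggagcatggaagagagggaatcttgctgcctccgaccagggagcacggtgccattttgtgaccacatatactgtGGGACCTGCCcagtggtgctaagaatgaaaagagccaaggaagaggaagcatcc
Gpr56 (chr8:94984149-94984398, plus strand): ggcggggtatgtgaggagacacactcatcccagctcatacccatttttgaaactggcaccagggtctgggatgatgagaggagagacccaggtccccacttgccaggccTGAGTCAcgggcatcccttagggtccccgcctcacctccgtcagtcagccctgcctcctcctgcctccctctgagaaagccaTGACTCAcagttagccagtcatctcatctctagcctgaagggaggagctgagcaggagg
Gpr146 (chr5:139380389-139380638, plus strand): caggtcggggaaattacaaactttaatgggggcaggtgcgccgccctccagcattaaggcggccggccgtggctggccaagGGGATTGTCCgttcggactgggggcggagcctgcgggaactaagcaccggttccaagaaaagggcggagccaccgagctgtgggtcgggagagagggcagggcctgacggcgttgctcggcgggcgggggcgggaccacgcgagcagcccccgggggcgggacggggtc

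The window of Gpr84, the member with the highest rise in LPS-treated cells, held none of the 4 motifs. That of Gpr35 held an NF-kB type match whose first base is at -54 relative to the start and an AP-1 type match at -184. That of Gpr56 held AP-1 type matches at -141 and -59, and that of Gpr146 an NF-kB type match at -169. Gpr35 and Gpr56 each have another RefSeq window with no match in its upstream bases, Gpr146 has 1 without and 1 with an NF-kB type match at -50, and which start was used in these cells is not known from the arrays. Of all 32851 RefSeq windows, which run from 250 bases before to 50 bases after a start, 20.7% held an NF-kB type, 7.81% an AP-1 type, 3.44% an interferon type and 1.79% a cAMP response element match. Windows were at hand for 29 of the 37 measured members, and 7, 4, 2 and 1 of these 29 held such a match in the same order. A member counted if any of its windows matched, and some have several. The shares are over single windows, so counts and shares are not like for like. A match is a description of these letters and not of a site in use.

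Of the 37 measured members, 31 were above background on all 12 arrays and 6 in just 1 whole group. These 6 were Gpr56 and Gpr35 in tolerant, Gpr183 and Gpr179 in untreated, Gpr44 in acute and Gpr171 in recovered cells. The share of members measured was 39.4%, and of all gene names 57.7%. The 57 others had no group with 3 arrays above background. Of these, 16 were above background on 1 to 4 arrays, among them Gpr4, Gpr22, Gpr52, Gpr61, Gpr82, Gpr98, Gpr119, Gpr120, Gpr124, Gpr139, Gpr161, Gpr173, Gpr180 and Gpr182. The remaining 41 were above it on no array. They included the adhesion receptors Gpr64, Gpr110, Gpr111, Gpr112, Gpr115, Gpr116, Gpr123, Gpr128 and Gpr133, the lipid or metabolite receptors Gpr34, Gpr55, Gpr81 and Gpr174, the class C receptor Gpr158, and Gpr137c. Others were Gpr1, Gpr12, Gpr15, Gpr17, Gpr20, Gpr21, Gpr33, Gpr37, Gpr39, Gpr50, Gpr63, Gpr75, Gpr83, Gpr101, Gpr135, Gpr142, Gpr143, Gpr149, Gpr151, Gpr152, Gpr153 and Gpr165. No level is given for members that were not measured.

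Against untreated cells, Gpr84, Gpr132 and Gpr85 were higher and Gpr146, Gpr19 and Gpr162 lower in recovered, tolerant and acute cells alike. The 3 comparisons share the same 3 untreated arrays. In recovered cells 9 members were higher and 5 lower (14 of 37, 37.8%; 35.4% of the 20469 genes tested were called, 18.5% higher and 16.9% lower), with a median difference of -0.05 over the members and 0.06 over all genes. In tolerant cells 7 were higher and 6 lower (13 of 37, 35.1%; 19.9% of all genes called, 11.3% higher and 8.61% lower), with medians of 0.06 and -0.02. In acute cells 6 were higher and 5 lower (11 of 37, 29.7%; 29.2% of all genes called, 14.3% higher and 14.9% lower), with medians of -0.12 and 0.02. The shares in recovered and acute cells lay close to those of all genes. Called means a Benjamini-Hochberg adjusted p under 0.05 in limma over all 20469 genes. Members that passed the filter through 1 group could hardly fail to differ, so the same was counted over the 31 above background on all arrays, where 11, 11 and 8 were called in recovered, tolerant and acute cells (35.5%, 35.5% and 25.8%, against 34.7%, 19.7% and 28.9% of all such genes). Of these, 8, 5 and 5 were higher (18.2%, 11.4% and 14% of all such genes) and 3, 6 and 3 lower (16.6%, 8.26% and 14.9%). With quantile normalization the medians of all genes moved to -0.08, -0.07 and -0.12, and the split of members became 8 higher and 9 lower in recovered and 5 and 7 in acute cells. With the values the authors deposited it was 10 and 11 in recovered and 9 and 10 in acute cells. Of all genes called, 52.3%, 56.7% and 48.9% were higher in recovered, tolerant and acute cells. That share was 40%, 45.5% and 39.5% with quantile normalization and 38.9%, 40.8% and 37.3% with the deposited values. The count of members for recovered cells was 9 without recovered replicate 1, where 28.6% of all genes were called.

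**Figure D1:**
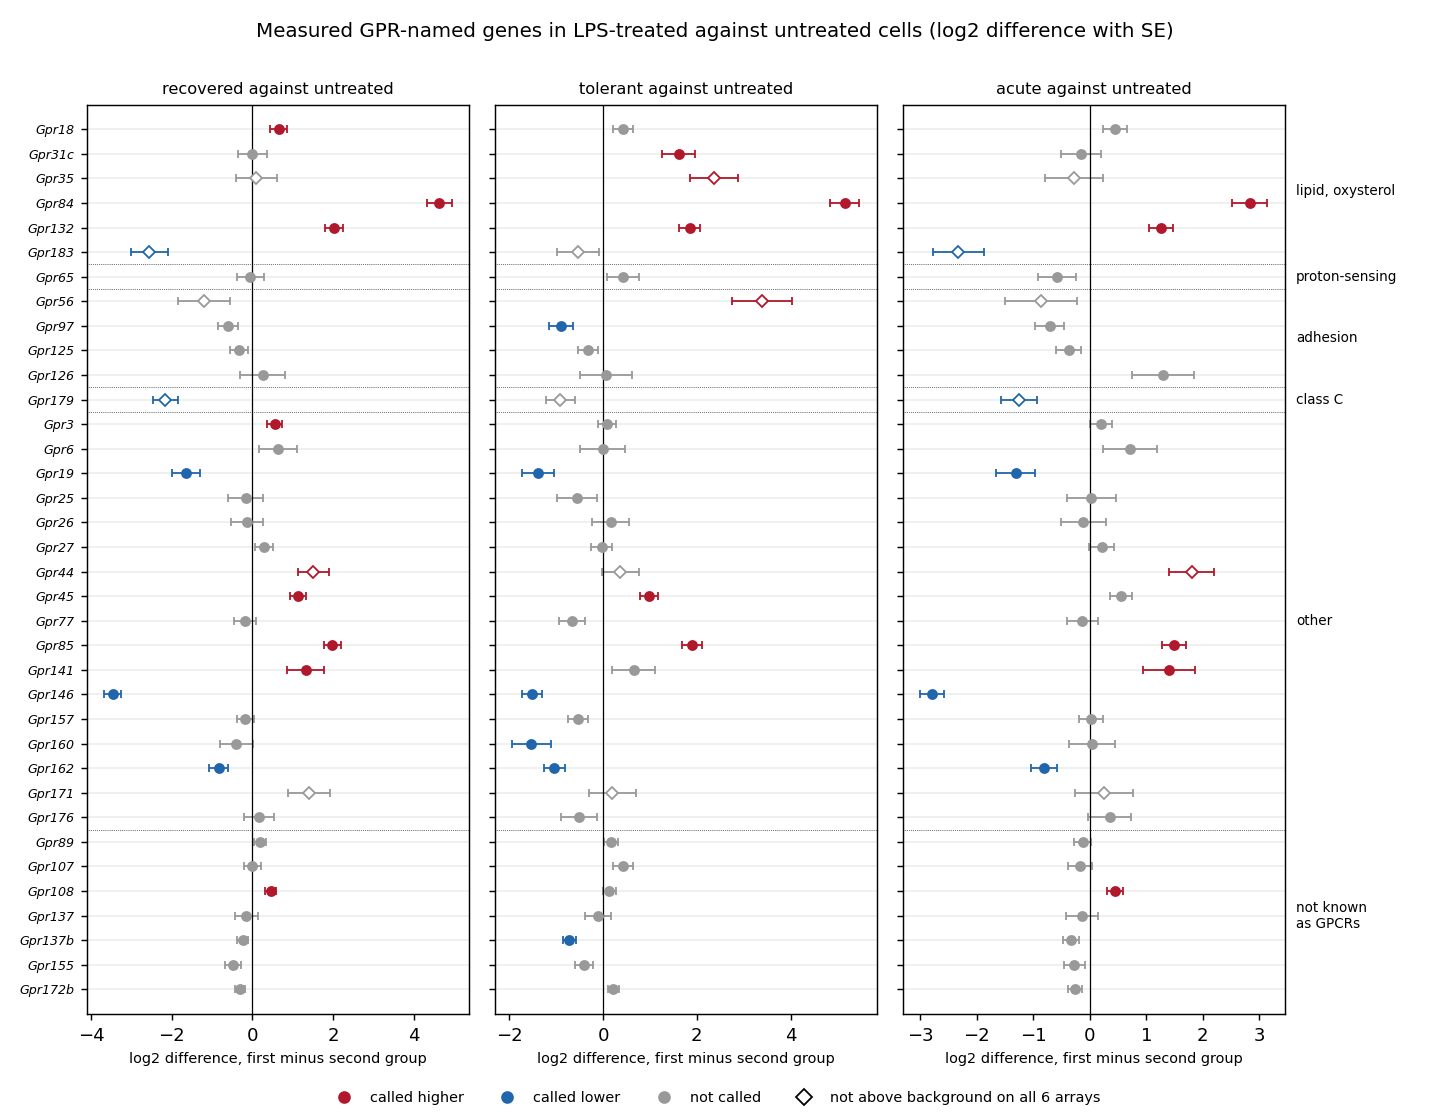
Log2 difference (dot) with its standard error (bar) of 36 of the measured members in recovered, tolerant and acute cells against untreated cells, 3 arrays per group, grouped by role; colours mark calls and open diamonds members not above background on all 6 arrays compared; the horizontal scales differ between panels. Gpr84 lies furthest to the right in each panel, at 4.62, 5.16 and 2.83, and Gpr146 furthest to the left in the recovered and acute panels.

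More members differed between tolerant cells and the acute or recovered cells than between recovered and acute cells, at shares close to those of all genes. In tolerant against acute cells 7 members were higher (Gpr56, Gpr35, Gpr84, Gpr183, Gpr31c, Gpr146 and Gpr172b) and 2 lower (Gpr160 and Gpr44). That is 9 of 37 (24.3%), where 22.7% of all genes were called, 12% higher and 10.6% lower. In recovered against tolerant cells 1 was higher (Gpr137b) and 7 lower (Gpr56, Gpr35, Gpr183, Gpr146, Gpr31c, Gpr179 and Gpr172b), 8 of 37 (21.6%), where 20.6% of all genes were called, 11% higher and 9.58% lower. In recovered against acute cells 1 member, Gpr84, was called, 2.7% of the members, where 2.05% of all genes were called, 1.47% higher and 0.581% lower. Among the 31 members above background on all arrays, the counts were 5 for tolerant against acute (16.1%, 22.9% of all such genes), 4 for recovered against tolerant (12.9%, 20.2%) and 1 for recovered against acute cells (3.23%, 1.89%). Of them 4, 1 and 1 were higher (12.6%, 10.5% and 1.41% of all such genes) and 1, 3 and 0 lower (10.3%, 9.76% and 0.484%). With the deposited values of the authors the members split 11 higher and 7 lower in tolerant against acute cells and 5 and 8 in recovered against tolerant cells. Over all genes 53.4% of those called were higher in recovered than in tolerant cells, and 42.3% with the deposited values. With normexp background correction the members' split in recovered against tolerant cells was 3 and 4.

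Replicate numbers paired the arrays, so each comparison was also fitted with the replicate as a block. No call was lost, and the called members numbered 21, 18 and 18 in recovered, tolerant and acute against untreated cells, 20 in tolerant against acute (10 higher, 10 lower), 18 in recovered against tolerant (10 higher, 8 lower) and 4 in recovered against acute cells. Over all genes that fit called 52.6%, 37.5%, 43.5%, 44.5%, 45.1% and 10.8% in the same order. The predominance of higher members in tolerant against acute cells, and of lower members in recovered against tolerant cells, did not hold in that fit. Every called member differed in the same direction on each slide that held both groups: 14 of 14, 13 of 13 and 11 of 11 against untreated cells, 9 of 9, 8 of 8 and 1 of 1 between the LPS-treated groups. The calls came from these same arrays, so the counts were close to fixed in advance and give no support.

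**Figure D2:**
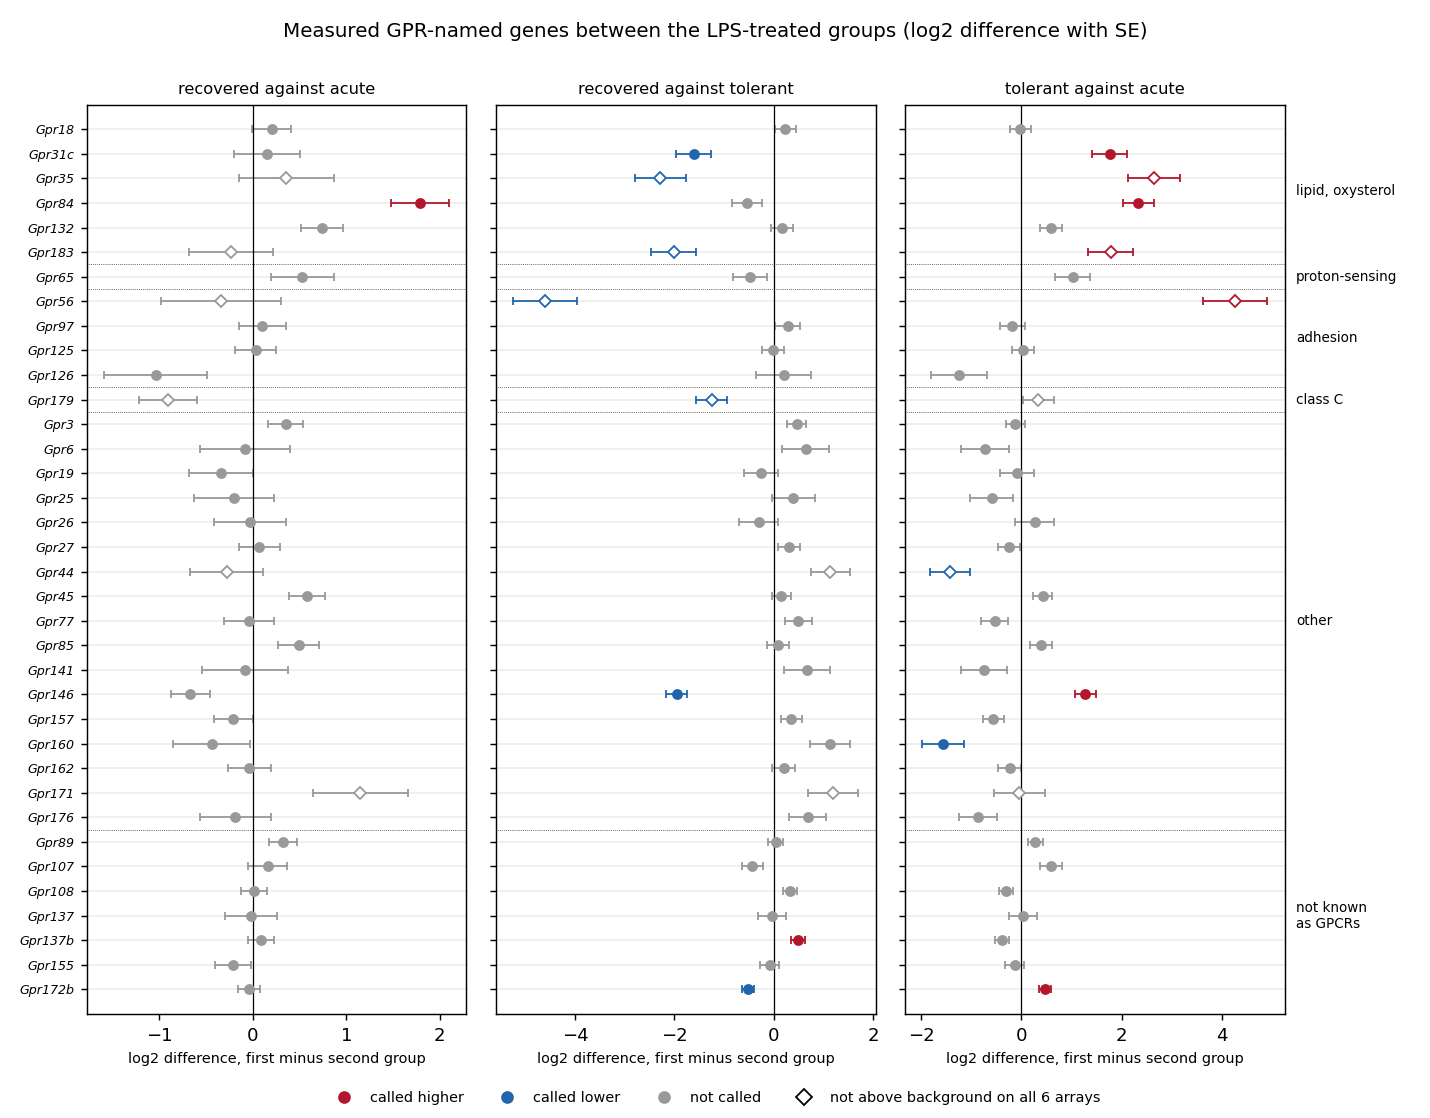
Log2 difference (dot) with its standard error (bar) of 36 of the measured members for recovered against acute, recovered against tolerant and tolerant against acute cells, 3 arrays per group; colours mark calls and open diamonds members not above background on all 6 arrays compared; the horizontal scales differ between panels. Gpr56 shows the largest differences between tolerant cells and the other groups, 4.26 against acute cells and -4.60 for recovered against tolerant cells, on a scale where acute and recovered arrays were not well above background.

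Among receptors for fatty acids, oxysterols and other small metabolites, 6 members were measured: Gpr84, Gpr35, Gpr183, Gpr132, Gpr31c and Gpr18. Against untreated cells, 3 were higher and 1 lower in recovered, 4 higher in tolerant, and 2 higher and 1 lower in acute cells, where 18.5%, 11.3% and 14.3% of all genes were called higher and 16.9%, 8.61% and 14.9% lower. In tolerant against acute cells 4 of the 6 were higher (12% of all genes were called higher) and their median difference was 1.77, against -0.05 over all genes. In recovered against tolerant cells 3 were lower (9.58% of all genes were called lower), with a median of -1.08 against 0.09. Gpr35 and Gpr183 passed the filter through 1 group where they were high, so these counts and medians give no support. Of the 4 others, above background on all arrays, 3 were higher in recovered, 3 in tolerant and 2 in acute against untreated cells and none lower, with medians of 1.33, 1.73 and 0.86. Among these 4, 2 were higher in tolerant than in acute cells (median 1.18) and 1 lower in recovered than in tolerant cells (median -0.19). The neutrophil granule genes S100a8 and Camp, 2 of the 6 genes of the neutrophil list on the array, were also higher in tolerant than in acute cells (1.82 and 1.39). Elane, the other gene of that list above background in a whole group, gave -0.30 there (adjusted p = 0.344). Mpo, not above background in any whole group, averaged 4.69 in tolerant and 5.20 in acute cells. The list's summed level was 12.70 to 12.84 in recovered, 12.14 to 12.90 in tolerant, 12.20 to 12.66 in acute and 12.09 to 12.69 in untreated cells, with S100a9 and Ngp above background on 0 arrays. Its part in these differences was not tested. The prostaglandin D2 receptor Gpr44 also binds a lipid but stood outside this list, and it was lower in tolerant than in acute cells.

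Gpr84, a receptor for medium-chain fatty acids found on myeloid cells (probe at chr15:103138670-103138729 on mm9), read 14.98, 14.66 and 14.10 in recovered cells, 15.04, 15.17 and 15.13 in tolerant cells, 12.85, 12.51 and 13.00 in acute cells, and 10.37, 10.29 and 9.22 in untreated cells. The recovered and tolerant arrays all lay above the acute arrays, and these above the untreated arrays. Gpr84 was higher than in untreated cells by 4.62 in recovered (adjusted p = 6.8e-07), by 5.16 in tolerant (8.14e-07) and by 2.83 in acute cells (3.32e-05), each with a standard error of 0.31. It was higher in tolerant than in acute cells by 2.33 (adjusted p = 0.000425), with 2.19, 2.66 and 2.13 on the 3 slides. It was also higher in recovered than in acute cells by 1.79 (adjusted p = 0.0232), with 2.31 and 1.09 on the 2 slides that held both. That last call was lost with the deposited values, with no filter on dim probes (adjusted p = 0.0552), and without acute replicate 1, acute replicate 2, recovered replicate 1 or recovered replicate 2 (adjusted p of at most 0.105), where the difference was 1.59 to 1.82. Recovered against tolerant cells gave -0.54, which was not called.

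Gpr132, a receptor of blood cells activated by oxidised fatty acids and lysophospholipids (chr12:114089088-114089147 on mm9), read 12.40, 12.94 and 12.50 in recovered cells, 12.68, 12.66 and 12.03 in tolerant cells, 12, 11.92 and 11.69 in acute cells, and 10.67, 10.80 and 10.34 in untreated cells. No array of an LPS-treated group overlapped the untreated arrays. It was higher by 2.01 in recovered (adjusted p = 3.42e-05), 1.85 in tolerant (0.00015) and 1.26 in acute cells (0.0011), each with a standard error of 0.22, and all 3 calls held in all 23 alternatives. In tolerant against acute cells the difference was 0.59 (adjusted p = 0.0793), and with the replicate block 0.59 with adjusted p = 0.0105. In recovered against acute cells it was 0.74 (adjusted p = 0.127, with the block 0.0141).

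Gpr35, a receptor for the tryptophan metabolite kynurenic acid (chr1:94881911-94881970 on mm9), was above background in tolerant cells and in no other group. Its probe read 2.33, 2.33 and 4.20 in recovered cells, 5.08, 5.37 and 5.26 in tolerant cells, 2.36, 2.12 and 3.29 in acute cells, and 2.95, 2.15 and 3.50 in untreated cells. The 3 tolerant arrays lay together above all 9 others, of which none was well above background, so fold changes are lower bounds. A bound sets the brighter group's mean against the dimmest signal counted as above background on the dim group's arrays, or the probe's own signal there if higher. In tolerant cells Gpr35 stood at least 2.59-fold above untreated cells (adjusted p = 0.00644) and at least 2.19-fold above acute cells (0.00367). It was at least 1.79-fold lower in recovered than in tolerant cells (0.00978). The last call was lost with normexp background correction (-0.18, adjusted p = 0.286). The first 2 calls held in all 22 alternatives that kept the gene, with fitted log2 differences of 0.48 to 2.68 and 0.49 to 2.99. The lower ends lie below the bounds, so bounds given here hold for the background subtraction used. The other 2 probes of Gpr35 were in no group above background on all arrays.

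Gpr183, known as EBI2, binds dihydroxylated cholesterol and guides immune cells along gradients of it (chr14:122351881-122351940 on mm9). It read 2.36, 2.37 and 4.26 in recovered cells, 5.28, 5.25 and 4.50 in tolerant cells, 3.11, 3.58 and 3.00 in acute cells, and 5.46, 5.94 and 5.24 in untreated cells. It was above background on all untreated and 2 of 3 tolerant arrays, and on no acute or recovered array. Gpr183 was at least 2.22-fold lower in recovered than in untreated cells (adjusted p = 0.00109) and at least 2.72-fold lower in acute cells (0.00242). It was at least 1.87-fold higher in tolerant than in acute cells (0.0164), and at least 1.53-fold lower in recovered than in tolerant cells (0.0107). Tolerant against untreated cells gave -0.54, not called. The B cell marker Cd79b was also lower in recovered cells, by -3.86 on the log2 scale against untreated and -2.41 against tolerant cells. Of the 5 genes of the B cell list it alone was above background in a whole group and Ms4a1 was on 0 arrays. The list's summed level was 6.92 to 7.70 in recovered, 8.16 to 10 in tolerant, 8.91 to 10.23 in acute and 9.83 to 11.41 in untreated cells, and its part in the result for Gpr183 was not tested. The difference of recovered and tolerant cells was -2.88 on the second slide and -0.24 on the third. With normexp background correction all 4 calls were lost (-0.28, -0.49, 0.28 and -0.08), and the call in tolerant against acute cells was also lost without acute replicate 1, tolerant replicate 1 or tolerant replicate 2 (0.28 to 2.03 over all 22).

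Gpr31c (chr17:13537452-13537511 on mm9) was higher in tolerant cells than in the other 3 groups, whose arrays overlapped. Its human counterpart binds a hydroxylated fatty acid made by lipoxygenase. It read 8.54, 7.61 and 8.32 in recovered cells, 10.45, 9.58 and 9.26 in tolerant cells, 8.02, 7.54 and 8.45 in acute cells, and 8.51, 7.86 and 8.11 in untreated cells. The differences were 1.61 for tolerant against untreated (adjusted p = 0.00739), 1.76 for tolerant against acute (0.00461) and -1.61 for recovered against tolerant cells (0.00903), with a standard error of 0.35, and each call held in all 23 alternatives. On the 3 slides the excess of tolerant over acute cells was 2.43, 2.04 and 0.81. All 3 probes of the name moved alike, with 1.62 to 1.95 in tolerant against acute cells. The name covers near-identical copies on chromosome 17, of which RefSeq lists Gpr31b as the coding one, so which copy gave the signal is uncertain.

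Gpr18, proposed to bind an arachidonic acid derivative of glycine, read 9.66 to 9.90 in recovered, 9.46 to 9.65 in tolerant, 9.35 to 9.68 in acute and 8.59 to 9.38 in untreated cells. Of its differences just that of recovered against untreated cells was called (0.65, standard error 0.21, adjusted p = 0.029), and 6 of 23 alternatives lost that call, among them leaving out any 1 recovered array or untreated replicate 3 (0.40 to 0.79 over all 23).

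**Figure D3:**
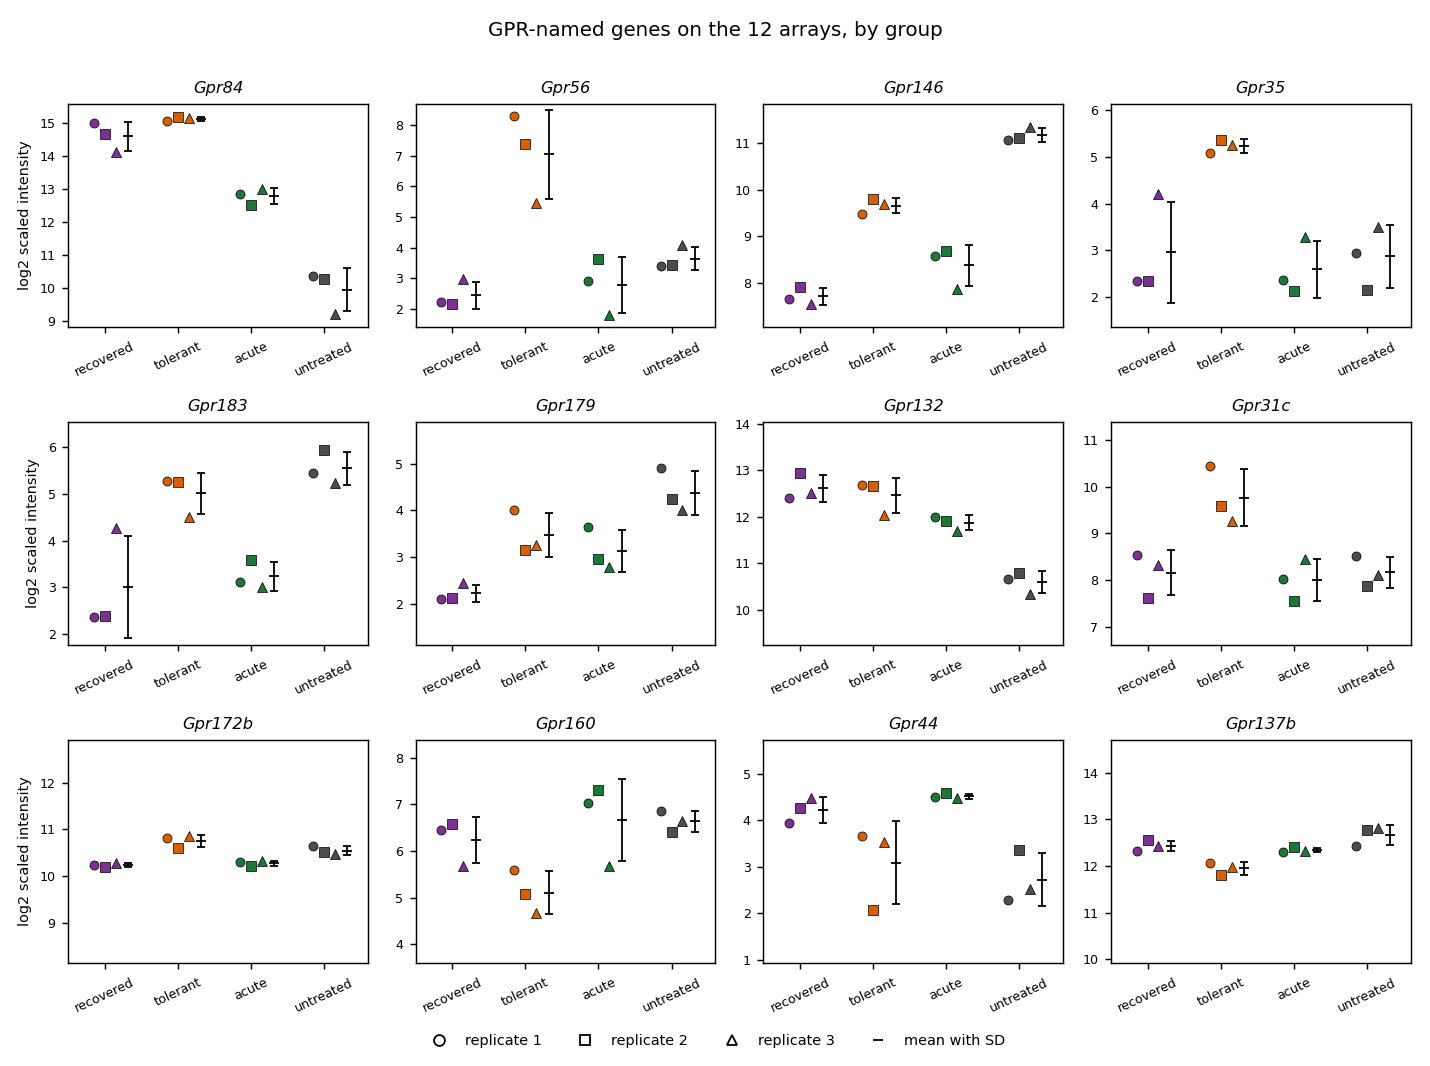
Log2 scaled intensity of 12 members on the 12 arrays by group, with circles, squares and triangles for replicates 1, 2 and 3 and a bar for the mean with its standard deviation (n = 3); axes differ between panels and do not start at 0. Gpr84 sits above 14 in recovered and tolerant cells and below 11 in untreated cells, while Gpr56, Gpr35 and Gpr31c stand out in tolerant cells.

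The proton-sensing receptor Gpr65, which raises cyclic AMP when the medium turns acid, was above background on every array. It was called by limma in none of the 6 comparisons and reached an unadjusted p under 0.05 in 1, tolerant against acute cells. Gpr65 read 11.73, 11.53 and 10.82 in recovered cells, 12.09, 12.22 and 11.22 in tolerant cells, 11.24, 11.09 and 10.16 in acute cells, and 11.55, 11.32 and 11.35 in untreated cells. It was picked after its values were seen. Within each replicate the tolerant array was the higher and the acute array the lower of the 2. Tolerant against acute cells differed by 1.02 (standard error 0.34, adjusted p = 0.0551), and with the replicate block by 1.02 (0.19, adjusted p = 0.00258). Acute against untreated cells gave -0.58 (adjusted p = 0.255, with the block 0.0326).

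Of the adhesion receptors, which have a long extracellular part that is cleaved from the membrane-spanning one, 4 of 17 members were measured: Gpr56, Gpr97, Gpr125 and Gpr126. Gpr56, a collagen-binding receptor best known from cortex development and cytotoxic lymphocytes (chr8:97537978-97538037 on mm9), read 2.22, 2.15 and 2.96 in recovered cells, 8.29, 7.39 and 5.45 in tolerant cells, 2.92, 3.63 and 1.80 in acute cells, and 3.41, 3.44 and 4.07 in untreated cells. All tolerant arrays lay above all others, but they spread over nearly 3 units. No recovered or acute array and 1 of 3 untreated arrays was above background. Gpr56 was at least 7.66-fold higher in tolerant than in acute cells (adjusted p = 0.000949) and at least 6.27-fold lower in recovered than in tolerant cells (0.000816). Against untreated cells it was called higher in tolerant cells (adjusted p = 0.00309), and the fitted difference of 3.40 (standard error 0.64) is open on the untreated side, where 2 of 3 arrays were not above background. The excess over acute cells was 5.38, 3.75 and 3.65 on the 3 slides. These calls held in all 22 alternatives that kept the gene, with smaller differences after normexp correction (1.49 against untreated, 1.56 against acute cells).

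Gpr97, a receptor of granulocytes, read 5.54 to 6.44 in recovered, 5.30 to 6.09 in tolerant, 5.76 to 6.05 in acute and 6.38 to 6.75 in untreated cells. It was lower in tolerant than in untreated cells by -0.90 on the log2 scale (standard error 0.25, adjusted p = 0.0264), a call lost in 5 of 23 alternatives, among them without untreated replicate 2 or 3 or tolerant replicate 1 or 2 (-0.88, -0.81, -0.70 and -0.89). Acute and recovered cells differed from untreated cells by -0.71 (adjusted p = 0.0519, with the block 0.0166) and -0.61 (0.0798, with the block 0.0285). Gpr125 read 6.11 to 7.08 over the 12 arrays, and the block called it lower in recovered, tolerant and acute cells (-0.34, -0.32 and -0.37, adjusted p = 0.0305, 0.0486 and 0.0256).

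Gpr126, needed by Schwann cells for myelination, shows how far the pairing mattered, and was picked after its values were seen. It read 12.17, 11.54 and 10.69 in recovered cells, 11.84, 11.53 and 10.45 in tolerant cells, 13.11, 12.79 and 11.63 in acute cells, and 11.92, 11.46 and 10.26 in untreated cells. In every group replicate 3 was the lowest and replicate 1 the highest, while the acute array exceeded the untreated one by 1.19, 1.33 and 1.38 on the 3 slides. The difference of acute and untreated cells was 1.30 (standard error 0.55, adjusted p = 0.107), and with the replicate block 1.30 (0.11, adjusted p = 9.78e-06). Tolerant against acute cells gave -1.24 (adjusted p = 0.131, with the block 4.04e-05) and recovered against acute cells -1.04 (0.444, with the block 0.00122). Tolerant and recovered cells differed from untreated cells by 0.06 and 0.25, with intervals of -1.16 to 1.27 and -0.96 to 1.47.

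The class C member Gpr179, a partner of the glutamate receptor cascade in retinal bipolar cells (chr11:97193423-97193482 on mm9), was above background in untreated cells and in no LPS-treated group. It read 2.10, 2.13 and 2.44 in recovered cells, 4.01, 3.16 and 3.25 in tolerant cells, 3.65, 2.95 and 2.79 in acute cells, and 4.91, 4.24 and 4.00 in untreated cells. It was at least 1.21-fold lower in acute than in untreated cells (adjusted p = 0.00924). In recovered cells it was called lower than in untreated cells (adjusted p = 0.000223) but the bound on the fold was under 1. Recovered and tolerant arrays were both dim, so that their call (adjusted p = 0.0156) has no fold. All 3 calls were lost with normexp background correction, where recovered against tolerant cells gave 0.14, and the last also without tolerant replicate 1 or recovered replicate 1. With the replicate block it was also called in tolerant against untreated cells (adjusted p = 0.0104) and in recovered against acute cells (0.0313).

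Of the 17 other members, Gpr146 changed most. It has been linked to the peptide released with insulin and to cholesterol export from the liver (chr5:139872290-139872349 on mm9). Gpr146 read 7.66, 7.92 and 7.56 in recovered cells, 9.48, 9.80 and 9.69 in tolerant cells, 8.59, 8.68 and 7.88 in acute cells, and 11.07, 11.11 and 11.34 in untreated cells. The untreated arrays were highest, the tolerant arrays next, and the recovered and acute arrays overlapped below them. It fell by 3.46 in recovered (adjusted p = 3.43e-07), by 1.52 in tolerant (0.000444) and by 2.79 in acute cells (1.95e-06), with a standard error of 0.21. It was higher in tolerant than in acute cells by 1.27 (adjusted p = 0.0016) and lower in recovered than in tolerant cells by -1.95 on the log2 scale (0.000209). These 5 calls held in all 23 alternatives. On the slides, tolerant minus acute cells gave 0.89, 1.12 and 1.81.

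Gpr44, the prostaglandin D2 receptor Ptgdr2 of eosinophils, basophils and T helper cells (chr19:11016942-11017001 on mm9), was above background in acute cells and in no other group. It read 3.93, 4.27 and 4.48 in recovered cells, 3.67, 2.07 and 3.53 in tolerant cells, 4.49, 4.58 and 4.47 in acute cells, and 2.28, 3.36 and 2.52 in untreated cells. It was at least 1.57-fold higher in acute than in untreated cells (adjusted p = 0.00485) and at least 1.19-fold lower in tolerant than in acute cells (0.024). The second call was lost in 6 of 22 alternatives, among them without acute replicate 1, acute replicate 2 or tolerant replicate 2 (-1.43, -1.39 and -0.91), and the first without the second scan day (1.72, adjusted p = 0.051). Recovered against untreated cells was called (adjusted p = 0.0112) with both groups not well above background, so no fold is given.

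Gpr160, an orphan receptor at the time of the array's design (chr3:30795907-30795966 on mm9), read 6.44, 6.58 and 5.68 in recovered cells, 5.58, 5.07 and 4.66 in tolerant cells, 7.03, 7.31 and 5.67 in acute cells, and 6.85, 6.41 and 6.64 in untreated cells. The tolerant arrays lay below all others. It fell by 1.53 in tolerant cells against untreated cells (adjusted p = 0.0211) and by 1.56 against acute cells (0.0177), with a standard error of 0.41, and 5 of 23 alternatives lost each call. Leaving out tolerant replicate 2 or 3 ended both, leaving out untreated replicate 1 or 3 the first, and leaving out acute replicate 1 or 2 the second (-1.77 to -0.76 and -2.06 to -0.86 over all 23). Recovered against tolerant cells gave 1.13 (adjusted p = 0.0714, with the block 0.0118).

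Gpr85 and Gpr19, orphan receptors best known from brain, moved in opposite directions. Gpr85 read 11.02 to 11.28 in recovered, 10.59 to 11.35 in tolerant, 10.47 to 10.92 in acute and 8.89 to 9.35 in untreated cells, higher by 1.98, 1.90 and 1.49 (standard error 0.22, adjusted p = 4.07e-05, 0.000135 and 0.000379). Gpr19 read 6.61 to 7.56 in recovered, 7.00 to 7.68 in tolerant, 6.94 to 7.89 in acute and 8.46 to 9.29 in untreated cells, with differences of -1.65, -1.39 and -1.31 (0.34, adjusted p = 0.0026, 0.0128 and 0.0119). The calls of Gpr85 held in all 23 alternatives, and those of Gpr19 in tolerant and acute cells were lost without untreated replicate 1 (adjusted p = 0.0523 and 0.0521). Gpr162, another orphan, was lower by -0.84, -1.04 and -0.81 on the log2 scale in recovered, tolerant and acute cells, and lost 4, 1 and 4 of its 23 alternatives, among them leaving out untreated replicate 2, recovered replicate 1 or 3 for recovered and untreated replicate 2, acute replicate 1 or 3 for acute cells (-1.16 to -0.68 and -1.13 to -0.67 over all 23). The orphan Gpr45 was higher by 1.13 in recovered and 0.98 in tolerant cells, while acute cells gave 0.55 (adjusted p = 0.0534, with the block 0.0271).

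Gpr141, an orphan receptor of blood cells with a paralog beside it, read 8.04 to 9.06 in recovered, 7.46 to 8.48 in tolerant, 7.86 to 9.21 in acute and 6.37 to 7.92 in untreated cells. It was higher by 1.32 in recovered (adjusted p = 0.045) and 1.40 in acute cells (0.0405), and 7 and 8 of 23 alternatives lost these calls, with 0.88 to 1.65 and 0.96 to 1.79 over all 23. Leaving out untreated replicate 2 or 3 or tolerant replicate 1 ended both, leaving out recovered replicate 1 or 2 or acute replicate 2 the first, and leaving out acute replicate 1 or 2 or recovered replicate 2 the second. Gpr3, which signals to cyclic AMP without a ligand, was higher by 0.55 in recovered cells (adjusted p = 0.0387), a call lost in 11 of 23 alternatives, 6 of which left out 1 array (untreated replicate 1 or 2, recovered replicate 1 or 3, acute replicate 2 or tolerant replicate 1), with 0.42 to 0.69 over all 23. Gpr77, the second receptor of complement fragment C5a, read 8.26 to 9.66 over the 12 arrays. The block called it lower in tolerant cells than in untreated (-0.66, adjusted p = 0.00382) and acute cells (-0.53, 0.0103). It was also called higher in recovered than in tolerant cells (0.49, 0.0156). The other probe of Gpr77, above background on all 12 arrays, gave -0.57, -0.95 and -0.51 in recovered, tolerant and acute against untreated cells. The probe used gave -0.18, -0.66 and -0.13.

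Gpr171, whose proposed ligand is a neuropeptide and which was also picked after its values were seen, was above background on all recovered arrays and in no other whole group. It read 5.68, 5.43 and 5.86 in recovered cells, 3.83, 4.60 and 4.95 in tolerant cells, 3.81, 4.63 and 5.09 in acute cells, and 3.93, 3.32 and 5.53 in untreated cells. The ranges of recovered and untreated cells overlapped. The difference of these 2 groups was 1.40 (standard error 0.51, adjusted p = 0.0552), and with the block 1.40 (0.36, adjusted p = 0.00955). It is open on the untreated side, where 1 of 3 arrays was above background. Gpr171 passed the filter through recovered cells alone, where it was high, so these values give no support.

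Of the 7 measured members not known to act as G protein-coupled receptors, Gpr108, Gpr137b and Gpr172b were called in some comparison. Gpr172b, the riboflavin transporter Slc52a2 (chr15:76371692-76371751 on mm9), read 10.23, 10.20 and 10.28 in recovered cells, 10.82, 10.61 and 10.85 in tolerant cells, 10.30, 10.22 and 10.32 in acute cells, and 10.65, 10.51 and 10.47 in untreated cells. The tolerant arrays lay above the acute and recovered arrays without overlap. Tolerant against acute cells gave 0.48 (standard error 0.12, adjusted p = 0.0174, lost in 5 of 23 alternatives) and recovered against tolerant cells -0.52 (0.0135, lost in 2). Without tolerant replicate 1 both calls were lost. Leaving out acute replicate 2 or tolerant replicate 3 ended the first (0.43 to 0.55 and -0.60 to -0.48 over all 23).

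Gpr137b, a membrane protein of lysosomes (chr13:13451128-13451187 on mm9), read 12.32, 12.55 and 12.42 in recovered cells, 12.07, 11.81 and 11.97 in tolerant cells, 12.30, 12.40 and 12.33 in acute cells, and 12.43, 12.77 and 12.81 in untreated cells. The tolerant arrays were the lowest 3. It fell by 0.72 in tolerant against untreated cells (standard error 0.14, adjusted p = 0.00439), held in all 23 alternatives. Its other 2 probes, above background on all 12 arrays, differed in size: they gave -1.19 and -1.26 in tolerant, -0.85 and -0.80 in recovered and -1.03 and -0.92 in acute against untreated cells, where the probe used gave -0.72, -0.24 and -0.33. Recovered against tolerant cells gave 0.48 (adjusted p = 0.0369), a call lost in 14 of 23 alternatives, including leaving out any 1 recovered or tolerant array or acute replicate 2 (0.39 to 0.54 over all 23). Tolerant against acute cells gave -0.39 (adjusted p = 0.0743, with the block 0.0307). RefSeq also lists a pseudogene of Gpr137b, which the probe may share. Gpr108, a Golgi membrane protein, was higher by 0.45 in recovered (adjusted p = 0.0235) and 0.44 in acute cells (0.0308), and 7 and 9 of 23 alternatives lost these calls, with 0.20 to 0.51 and 0.19 to 0.50 over all 23. Leaving out untreated replicate 2 or 3 ended both, leaving out recovered replicate 1 the first and leaving out any 1 acute array the second. Gpr107, Gpr89, Gpr137 and Gpr155 were not called. With the block Gpr107 was higher in tolerant than in untreated (0.42, adjusted p = 0.00525) and acute cells (0.59, 0.000832). It was then also lower in recovered than in tolerant cells (-0.43, adjusted p = 0.00468). The block called Gpr155 lower in recovered than in untreated cells (-0.48, adjusted p = 0.0295).

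In all, 21 of the 37 measured members were called in at least 1 of the 6 comparisons and 16 in none. The F-test over the 4 groups called 17 (45.9%), where it called 40.1% of all genes, and 29 with the replicate block. The 17 include Gpr56, Gpr35, Gpr183, Gpr179 and Gpr44, which passed the filter through 1 group, so the higher share gives no support. No share of all genes was at hand for the counts of 21 and 29. The 16 uncalled members included Gpr6, Gpr25, Gpr26, Gpr27, Gpr65, Gpr77, Gpr89, Gpr107, Gpr125, Gpr126, Gpr137, Gpr155, Gpr157, Gpr171 and Gpr176. Their differences ran from -1.24 to 1.40. The block called 12 of them in some comparison, and Gpr25, Gpr26, Gpr89 and Gpr137 in none.

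Genes that act with these receptors were taken from lists. Some lists hold genes not above background on all arrays, such as Rgs6, Rgs9, Gnal and Adcy6, and their counts include these. For the ligand of Gpr183, 3 of 4 enzymes were measured. Ch25h, which makes its precursor, read 13.98, 13.46 and 12.34 in recovered cells, 12.02, 11.77 and 10.55 in tolerant cells, 13.50, 13.08 and 12.11 in acute cells, and 9.38, 9.04 and 6.74 in untreated cells. It was higher by 4.87 in recovered (adjusted p = 0.000226), 3.06 in tolerant (0.00902) and 4.51 in acute cells (0.000468), with a standard error of 0.69. Hsd3b7, which breaks the ligand down, was higher in tolerant than in acute cells by 0.69 (adjusted p = 0.00214) and lower in acute than in untreated cells by -0.40 on the log2 scale (0.0268). It was lower in recovered than in tolerant cells (-0.47, adjusted p = 0.0179). Cyp27a1 was lower in tolerant than in acute cells (-0.99, adjusted p = 0.0296). Cyp7b1, which completes the ligand, was above background on 0 arrays.

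Receptor kinases and arrestins, 7 of 7 measured, were lower where they changed against untreated cells: 4 lower in recovered, 2 in tolerant and 4 in acute cells, and none higher in limma, also at an unadjusted p under 0.05, with medians of -0.90, -0.08 and -0.71. Of all genes 16.9%, 8.61% and 14.9% were called lower. In recovered against tolerant cells 4 were lower (9.58% of all genes), and in tolerant against acute cells 2 were higher (12% of all genes). Arrb1, one of the 2 arrestins that end receptor signals outside the retina, read 12.10, 12.47 and 11.66 in recovered cells, 13.43, 13.35 and 12.92 in tolerant cells, 13.14, 12.96 and 12.53 in acute cells, and 14.64, 14.26 and 14.32 in untreated cells. Its differences from untreated cells were -2.33, -1.17 and -1.53 (standard error 0.24). Those of the kinase Grk6 were -2.15, -1.27 and -1.56 (0.16). Arrb2, the other such arrestin, was lower in recovered and acute cells (-0.96 and -0.87) and gave -0.08 in tolerant cells, and it was higher in tolerant than in acute cells (0.80, adjusted p = 0.0239).

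Of 21 RGS genes on the list 15 were measured. Against untreated cells 5 were higher and 3 lower in recovered, 2 and 4 in tolerant, and 5 and 3 in acute cells, where 35.4%, 19.9% and 29.2% of all genes were called in either direction. In tolerant against acute cells 2 were higher and 6 lower (12% and 10.6% of all genes). In recovered against tolerant cells 5 were higher and 0 lower (11% and 9.58% of all genes). Rgs16 read 9.92, 10.14 and 10.48 in recovered cells, 8.01, 7.27 and 8.25 in tolerant cells, 8.65, 8.66 and 9.02 in acute cells, and 5.66, 5.58 and 4.77 in untreated cells, with differences of 4.85, 2.51 and 3.44 (standard error 0.30). It was higher in recovered than in acute cells (1.41, adjusted p = 0.0408). Rgs2 was lower in tolerant cells than in untreated (-1.92, adjusted p = 0.000132) and acute cells (-2.49, 5.82e-05), and recovered cells gave 0.26 against untreated cells. Rgs1 was higher by 2.56, 1.12 and 2.71 in recovered, tolerant and acute cells.

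Of 28 G protein subunits 21 were measured. Against untreated cells 5 were higher and 2 lower in recovered, 2 and 1 in tolerant, and 3 and 3 in acute cells. These shares lay close to or below the 35.4%, 19.9% and 29.2% of all genes. In tolerant against acute cells 2 subunits were higher and 6 lower (12% and 10.6% of all genes). In recovered against tolerant cells 7 were higher and 1 lower (11% and 9.58% of all genes). The beta subunit Gnb4 read 11.44, 10.91 and 12.02 in recovered cells, 9.26, 8.94 and 9.15 in tolerant cells, 11.16, 10.73 and 11.96 in acute cells, and 6.94, 6.87 and 8.03 in untreated cells, with differences of 4.18, 1.83 and 4.01 (standard error 0.39). The alpha subunit Gna13 was higher by 1.41, 0.72 and 1.26, and Gna12 was lower in acute cells (-1.02, adjusted p = 0.000202). Adenylyl cyclases and phosphodiesterases make and break cyclic AMP, and 12 were measured. Against untreated cells 1 was higher and 1 lower in recovered, 1 and 2 in tolerant, and 2 and 1 in acute cells (35.4%, 19.9% and 29.2% of all genes). In tolerant against acute cells 0 of these were higher and 4 lower, and in recovered against tolerant cells 2 were higher and 0 lower. Against untreated cells the phosphodiesterase Pde4b was higher by 2.62, 1.91 and 2.10 in recovered, tolerant and acute cells (standard error 0.22). Adcy9 was lower (-1.62, -1.21 and -1.48), and Adcy3 was lower in tolerant cells (-1.40, adjusted p = 0.000849).

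**Figure D4:**
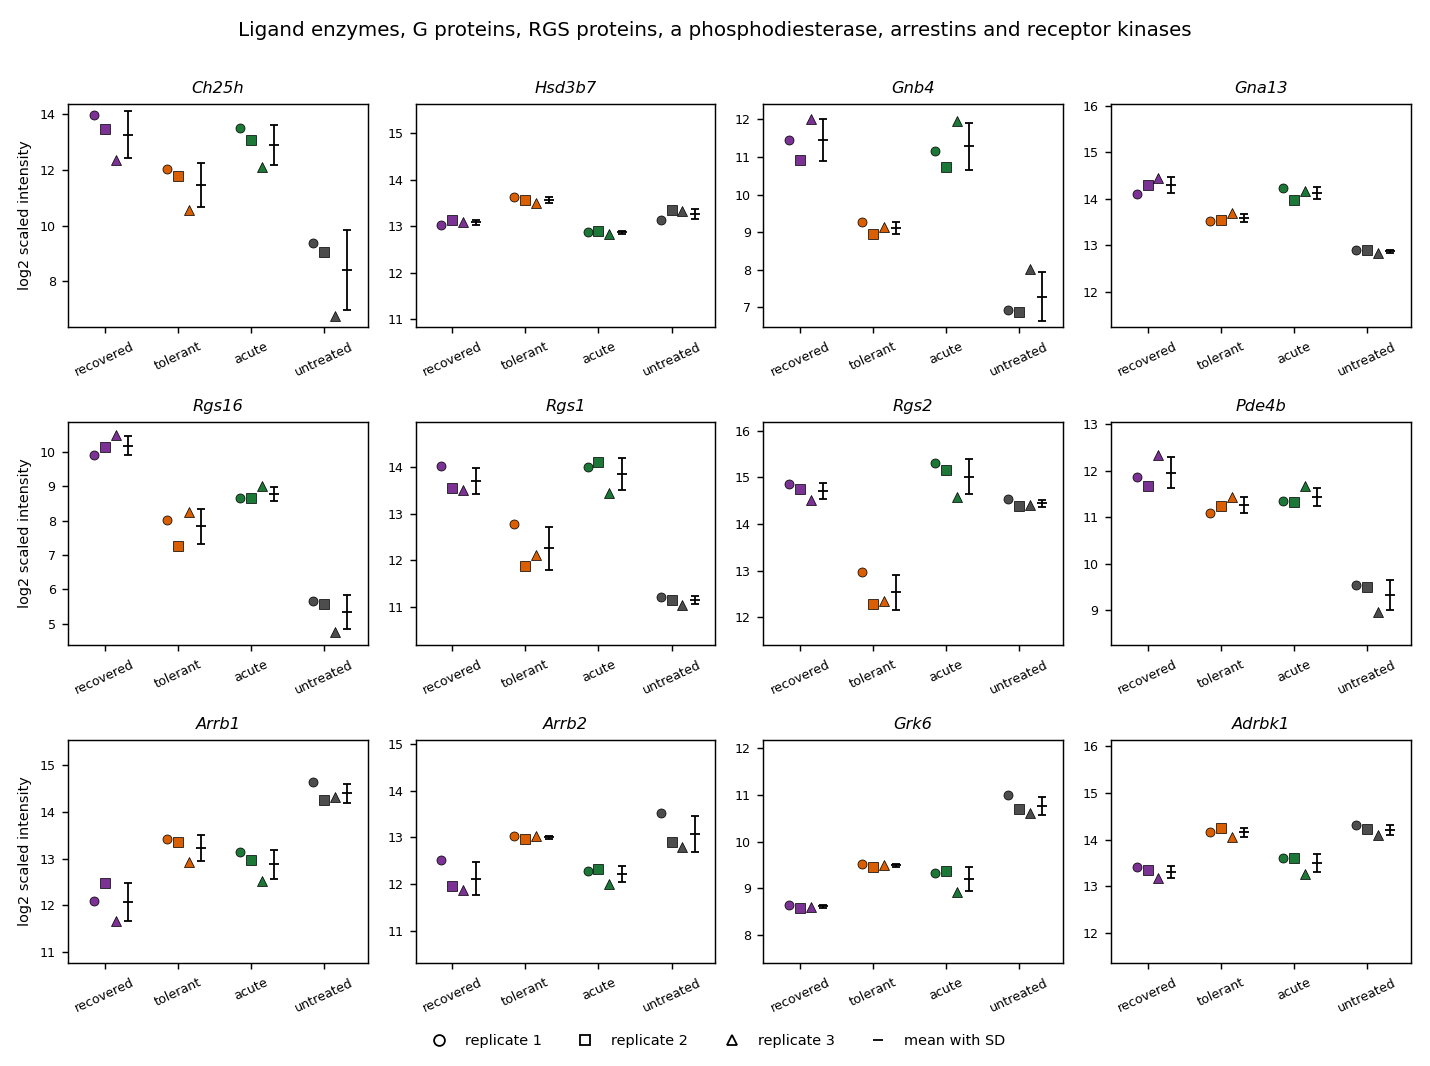
Log2 scaled intensity on the 12 arrays by group of genes that act with the receptors, with circles, squares and triangles for replicates 1, 2 and 3 and a bar for the mean with its standard deviation (n = 3); axes differ between panels and do not start at 0. Gnb4, Rgs1 and Ch25h are higher in all LPS-treated groups than in untreated cells and lower in tolerant than in recovered and acute cells on every array of the same replicate, while Arrb1 and Grk6 are below the untreated arrays throughout.

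Receptors named by their ligand served as a neighbouring family, 17 of 27 on the array being measured, with 6 higher and 5 lower in recovered, 6 and 3 in tolerant, and 4 and 4 in acute cells, where 35.4%, 19.9% and 29.2% of all genes were called. In tolerant against acute cells 3 were higher (12% of all genes). Some of the 17, such as Kiss1r, Sucnr1 and Lpar4, passed the filter through groups where they were high, so these counts give no support. Cysltr2, a leukotriene receptor, was higher by 3.44, 2.70 and 3.42 (standard error 0.26), and Lpar5, for lysophosphatidic acid, lower (-1.89, -1.77 and -2.13). Sucnr1, for succinate, was above background on all tolerant and untreated arrays and on no acute or recovered array, and was at least 2.12-fold higher in tolerant than in acute cells (adjusted p = 0.0118). Of 13 adhesion receptors with other names 9 were measured. Against untreated cells 3 were higher and 4 lower in recovered, 1 and 1 in tolerant, and 0 and 2 in acute cells. Of all genes 35.4%, 19.9% and 29.2% were called there. Some of the 9, such as Lphn1 and Bai1, were not above background on all arrays, so these counts give no support. Celsr3 was higher in tolerant than in acute cells (2.83, adjusted p = 0.00408) and lower in recovered than in tolerant cells (-2.38, 0.0122), with 0.38 in tolerant against untreated cells. Lphn2 was higher in recovered (1.97) and tolerant cells (1.13) than in untreated cells, and Bai2 lower in recovered cells (-2.03, adjusted p = 0.0346).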

How the data were processed

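Agilent scanner output of 12 single-colour arrays was analysed. Intensity values (processed signal, background-subtracted by Agilent Feature Extraction 10.7.3.1, per the file headers) were deposited by the authors unnormalized between arrays. The authors also deposited a table of log2 values, whose scaling is not given in the sources used here. Each of its 12 columns correlated best with its own array (lowest r = 0.973), and it served as an alternative.

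Control spots and outlier flags were left out, and spots of a probe were averaged (55681 probes, of which 118 had an outlier spot alone and were dropped). The processed signal was set to log2, less each array's 75th percentile, plus the mean of these percentiles. Each gene was read from its brightest probe and kept if every array of some group had it well above background. limma 3.58.1 (R 4.3.3) fitted the 4 groups together by lmFit and eBayes, with Benjamini-Hochberg adjustment over 20469 genes. The arrays' number, 3 per group, limits the precision. The script was tested on simulated data. Same-numbered arrays of different groups deviated together from their group means. In 18 of 18 such pairs r was 0.276 to 0.775 (median 0.451), against a median of -0.369 over 36 pairs of different number. The series' design text names 3 independent experiments, so a replicate block was also fitted. Its counts are given for every comparison, but just some of the calls it added are given by gene.

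Values on every array were given for members called by the F-test whose group means spanned at least 2 log2 units and for members called between LPS-treated groups, plus the 3 picked afterwards (Gpr65, Gpr126 and Gpr171). From the lists, the oxysterol enzymes and at most 3 called genes a list with the largest changes were named. The members, lists and tests were chosen with earlier results of these data known. Names were matched to RefSeq for all 94 members (88 by accession, 5 by symbol, 1 by synonym). Probe positions are those of the array files on mm9, and the sequences are from RefSeq on GRCm38.p6, without conversion. Alternatives were the background correction, normalization, deposited values, filters, probe averaging, blocks, variance trend and arrays left out. Leaving out an array of a group not compared leaves the difference unchanged and alters just its standard error and adjusted p. Such alternatives are counted in the totals and are a weak challenge to a call. Some members are not reported here by name, though the counts include them.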

Additional observations from a re-analysis of the deposited data

Results flagged for a closer look

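The differences of the LPS-treated groups from the shared untreated arrays were compared with each other in the same limma fit, and those of 11 members differed between groups. In tolerant against acute cells the differences between the groups were 4.26 for Gpr56, 2.64 for Gpr35, 2.33 for Gpr84, 1.78 for Gpr183, 1.76 for Gpr31c, 1.27 for Gpr146 and 0.48 for Gpr172b. They were -1.42 for Gpr44 and -1.56 for Gpr160. In recovered against tolerant cells they were 0.48 for Gpr137b, -0.52 for Gpr172b, -1.61 for Gpr31c, -1.95 for Gpr146, -2.01 for Gpr183, -2.28 for Gpr35 and -4.60 for Gpr56. Gpr179 gave -1.25 there, between groups that were both not well above background. In recovered against acute cells the difference was 1.79 for Gpr84. For Gpr56, Gpr35, Gpr183 and Gpr44 the values against dim arrays are fitted log2 differences and not bounds.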

How the results depend on the processing

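With the replicate block the called members against untreated cells numbered 21 in recovered, 18 in tolerant and 18 in acute cells (52.6%, 37.5% and 43.5% of all genes). Between LPS-treated groups they numbered 4 (recovered against acute), 18 (recovered against tolerant) and 20 (tolerant against acute), and the F-test called 29. Of all genes 10.8%, 45.1% and 44.5% were called between these groups in that order. The replicate block ended no call. With the slide as a block the counts were 18 (acute against untreated), 23 (tolerant against acute), 15 (recovered against tolerant), 4 (recovered against acute) and 27 (F-test), while 45.4%, 47%, 40.2% and 7.84% of all genes were called in the first 4. With the authors' deposited values they were 19, 18, 13, 3 and 28 in the same order, with 45.4%, 37.5%, 36.2% and 5.9% of all genes. No share of all genes was at hand for the F-test counts. Recovered against acute cells had 0 called members with no filter on dim probes. There 0.279% of all genes were called, and limma gave 13 of 94 members an unadjusted p under 0.05. The stricter filter left 4 in recovered against tolerant cells (21.7% of all genes), since fewer members were tested. Without the second scan day, an alternative chosen after seeing the data, 14 were called in tolerant against acute cells (25.7% of all genes).

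Leaving out 1 array at a time gave 9 to 15 called members in recovered, 11 to 14 in tolerant and 8 to 13 in acute cells against untreated cells. Of all genes, 28.6% to 36.8%, 14.2% to 21% and 24.4% to 29.3% were called in the same order. Between LPS-treated groups the ranges were 0 to 2 (recovered against acute), 6 to 9 (recovered against tolerant) and 6 to 12 (tolerant against acute), and the F-test gave 14 to 19. In these 3 comparisons 0.122% to 2.19%, 12.6% to 22% and 15.3% to 23.5% of all genes were called. No share of all genes was at hand for the F-test. The count of 0 came without acute replicate 1 or 2 or recovered replicate 1 or 2, where limma gave 5, 5, 5 and 7 members an unadjusted p under 0.05. Gpr179 in recovered against tolerant cells turned to 0.14 with normexp correction. The cause of these changes was not tested. Members near background (Gpr35, Gpr44, Gpr56, Gpr171, Gpr179 and Gpr183) have values that depend on the background correction.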
